A study of Rattus norvegicus with 24 samples.

Results

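The immunoglobulin genes were followed as 327 of the 30667 gene rows of an RNA sequencing table of rat lung. They were taken by name: rows for the kappa light chain locus (Igk), the lambda light chain locus (Igl) and the heavy chain locus (Igh), without Ighmbp2, which is not an immunoglobulin gene. They comprised 142 kappa variable, 162 heavy variable and 2 lambda variable genes, 5 kappa and 2 lambda joining genes, 1 heavy diversity gene, and 13 constant region genes (Igkc, 4 Iglc, 4 Ighg, Igha, Ighm, Ighd and Ighe). All 327 were kept in every test, and 245 of them averaged at least 10 across the samples.

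The series held 24 lung tissue samples, all labelled smoky coal, from a series on lung cancer brought on in rats by that agent. Each sample is named by a letter (A, B, C or G, 6 samples each) and a number (1 to 6, 4 samples each). Neither letters nor numbers are explained in the labels, which also leave out the strain, age, dose and time and do not tell which samples, if any, were unexposed. Whether samples came from separate animals is not stated, so p-values measure only the spread between these samples.

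Antibodies are made of heavy and light chains. A developing B cell joins a variable gene to a joining segment (in the heavy chain also a diversity segment), and the constant region then sets the class: IgM and IgD on naive B cells, IgG, IgA or IgE after class switching. Plasma cells are the antibody-secreting descendants of B cells and carry far more immunoglobulin mRNA per cell than resting B cells. In lung, IgA is carried across the airway lining by the receptor encoded by Pigr, and B cells can gather in lymphoid clusters along the bronchi. In bulk tissue, fewer cells of a type and less RNA per cell cannot be told apart.

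The rows carry mouse gene names although the samples are labelled rat, and the submitters' processing notes name a mouse build (GRCm38). Only 1 of the 327 immunoglobulin names (Iglc1) matched a rat RefSeq symbol, against 52.6% of all rows. A value for one variable gene or one IgG subclass therefore says how much rat RNA was assigned to the mouse gene of that name, and near-identical genes may share reads. Gene lengths were not used here, so levels are compared between samples. Where genes are ranked within a sample by their share, the ranks are of values not adjusted for length.

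Values were normalized counts that summed to between 61717516 and 66007148 per sample, so the read depth behind each is unknown. The lung markers Sftpc (surfactant protein C) and Scgb1a1 (the club cell secretory protein) were high in every sample, at 603887 to 932776 and 303417 to 652541. Marker lists for squamous epithelium and skeletal muscle stood far above the other samples in A4 (list scores, the mean log2 difference from the average sample, of 5.21 and 5.18), and the muscle list also in B4 (3.40). Their part in the results was not tested, but without A4 the immunoglobulin genes differing over the numbers were 154 in place of 167.

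Immunoglobulin RNA differed widely between samples of the same letter. The 327 genes together took from 0.0502% of all values in B1 to 2.16% in G2. The 4 samples numbered 1 were low for kappa, lambda and IgG, and 2 of the samples numbered 2, A2 and C2, were close to them. The other 2 samples numbered 2, B2 and G2, were among the highest. No immunoglobulin gene passed the test between letters, while 167 passed it over the numbers.

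Igkc encodes the constant region of all kappa light chains. In the samples numbered 1 it stood at 11535 in A1, 10827 in B1, 14626 in C1 and 27100 in G1. In those numbered 2 it stood at 24675 in A2, 222940 in B2, 20666 in C2 and 626192 in G2. In those numbered 3 it stood at 303241 in A3, 61730 in B3, 203116 in C3 and 272638 in G3. All 4 samples numbered 1 thus lay below all 4 numbered 3, and the samples numbered 2 fell on both sides. Numbers 4, 5 and 6 ranged from 71796 to 226809, from 92039 to 140316 and from 90914 to 129039, with none overlapping number 1. Relative to number 1, Igkc was higher by 3.59 on the log2 scale in number 3 (SE 0.72, adjusted p = 0.00273, limma with Benjamini-Hochberg adjustment over all genes) and by 2.90 in number 6 (SE 0.72, adjusted p = 0.0138). Log2 differences were taken after adding 1 to each value. Comparisons of 2 numbers, here and below, were added after the data were seen. Their p-values are adjusted over genes but not over the 15 pairs of numbers, so those near the threshold are weak.

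The 4 IgG genes encode the heavy chains of the main antibody class of serum. Among the constant region sums, theirs had the highest ratio of highest to lowest sample (147, against 98.6 for lambda and 57.8 for Igkc). The IgG sum was 3238 in A1, 3123 in B1, 4039 in C1 and 7165 in G1. In the samples numbered 2 it was 10646 in A2, 186448 in B2, 9554 in C2 and 457878 in G2. In the samples numbered 3 it was 248746 in A3, 40959 in B3, 193418 in C3 and 248049 in G3. No sample numbered 1 reached the lowest sample of numbers 3 to 6, and A2 and C2 lay between. The mean IgG sum over numbers 3 to 6 was 28.6 times that of number 1, against 9.33 times for Igkc and 9.47 times for the lambda constant genes. These ratios were chosen after the values were seen and are a description.

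Each IgG gene was higher in number 3 than in number 1. The log2 difference was 4.47 for Ighg1 (SE 0.73, adjusted p = 0.000559, limma) and 6.35 for Ighg2b (SE 0.96, adjusted p = 0.000312). It was 6.28 for Ighg2c (SE 0.93, adjusted p = 0.000239) and 5.57 for Ighg3 (SE 0.83, adjusted p = 0.000259). The subclass names are those of mouse genes and do not carry over to the rat subclasses.

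**Figure D1:**
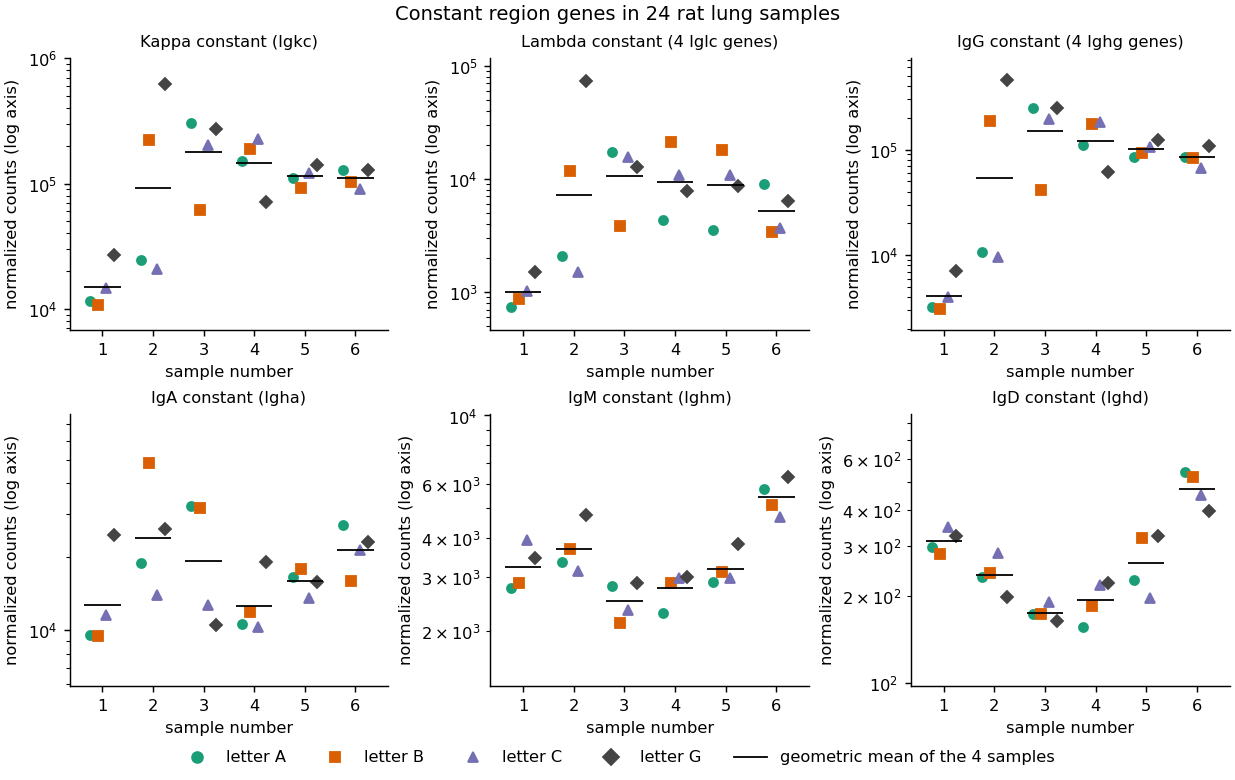
Normalized counts (log axis) of constant region genes and sums by sample number, with a point for each of the 24 samples coloured by letter and a bar at the geometric mean of the 4 samples. The IgG sum runs from 3123 to 7165 in number 1 and from 40959 to 248746 in numbers 3 to 6, while IgM and IgD are highest in number 6.

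Lambda light chains followed the same pattern at number 1. The sum of the 4 Iglc genes was 739 in A1, 867 in B1, 1034 in C1 and 1509 in G1. It was 2105 in A2, 11768 in B2, 1496 in C2 and 72874 in G2, the highest of all samples. Over numbers 3 to 6 it ranged from 3383 to 21087, again above every sample numbered 1. Iglc2, Iglc3, Iglc1 and Iglc4 were all higher in number 3 than in number 1, by 3.35, 3.61, 1.77 and 2.001 on the log2 scale (adjusted p = 0.0100, 0.00659, 0.0215 and 0.00794, limma). The call for Iglc1 was lost without A1 (adjusted p = 0.0899), A3 (0.0873), B1 (0.0699) or C3 (0.0880). Lambda as a share of the light chain constant values ran from 2.82% in A4 to 16.3% in B5 and did not pass the test over numbers (adjusted p = 0.643, permutation test within letters).

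IgA did not follow that pattern. Igha, the heavy chain of the mucosal antibody class, was 9575 in A1, 9444 in B1, 11583 in C1 and 24463 in G1. In number 3 it was 32236 in A3, 31868 in B3, 12646 in C3 and 10519 in G3, which overlapped number 1. The highest value, 48320, was in B2. The difference of number 3 from number 1 was 0.60 on the log2 scale (SE 0.36, adjusted p = 0.364), and Igha did not pass the test over the 6 numbers (adjusted p = 0.159, limma). In the permutation test the IgA level missed the threshold (adjusted p = 0.209) and passed it without G3 (adjusted p = 0.0433). Ighe, the heavy chain of the class tied to allergy and parasites, lay between 0.9 and 18.4 in all samples and did not pass either (adjusted p = 0.422).

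IgM and IgD, the classes of naive B cells, were highest in number 6 and not lowest in number 1. Ighm was 5769 in A6, 5112 in B6, 4669 in C6 and 6331 in G6. In number 5 it was 2885 in A5, 3114 in B5, 2972 in C5 and 3816 in G5, below every sample numbered 6. In number 3 it was 2790 in A3, 2120 in B3, 2342 in C3 and 2855 in G3, against 2762 in A1, 2851 in B1, 3946 in C1 and 3445 in G1. Among all samples, only G2 (4749) reached into the range of number 6. Ighm was higher in number 6 than in number 5 by 0.77 (SE 0.11, adjusted p = 0.00611, limma) and lower in number 3 than in number 1 by 0.36, a log2 difference of -0.36 (SE 0.11, adjusted p = 0.0486). The second of these calls was lost in 17 of 29 alternative settings, with 75th percentile scaling among them (adjusted p = 0.159).

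Ighd was 539 in A6, 521 in B6, 451 in C6 and 396 in G6, and no other sample reached 396. It was 296 in A1, 280 in B1, 349 in C1 and 323 in G1, and 173 in A3, 174 in B3, 190 in C3 and 164 in G3. All 4 samples numbered 3 thus lay below all 4 numbered 1. Of the 245 genes with a mean of at least 10, Ighd was the 1 (0.408%) whose 4 highest samples were the 4 numbered 6, and among all genes with such a mean there were 96 of 21922 (0.438%). Its log2 difference was -0.82 for number 3 against 1 (SE 0.16, adjusted p = 0.00204, limma) and 0.85 for number 6 against 5 (SE 0.16, adjusted p = 0.0193). The latter was lost in 6 of 30 alternatives: with 75th percentile scaling (adjusted p = 0.0541), without the samples numbered 1 (0.0545), and without A5 (0.0618), A6 (0.101), B6 (0.0911) or C5 (0.112).

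The mix of heavy chain classes shifted with IgG. IgG took 20.4% of the heavy chain constant values in A1, 19.9% in B1, 20.3% in C1 and 20.2% in G1, a range narrower than in any other number. It took 32.2% in A2 and 35.4% in C2 but 78.1% in B2 and 93.6% in G2. Over numbers 3 to 6 it ranged from 54.5% in B3 to 94.8% in G3, with a median of 83.8%, so the samples numbered 1 lay apart. IgA held 58.1% to 69.1% in number 1 and as little as 4.02% in G3. IgM held 9.73% to 19.8% in number 1 and 0.971% in G2. The numbers accounted for 75.3% of the variance of the IgG share (adjusted p = 0.00723), 70.5% for IgA (adjusted p = 0.00898) and 79.3% for IgM (adjusted p = 0.00467, permutation of numbers within letters). Free shuffling of all 24 samples would give 21.7% on average. The value for shuffling within letters was not computed.

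**Figure D2:**
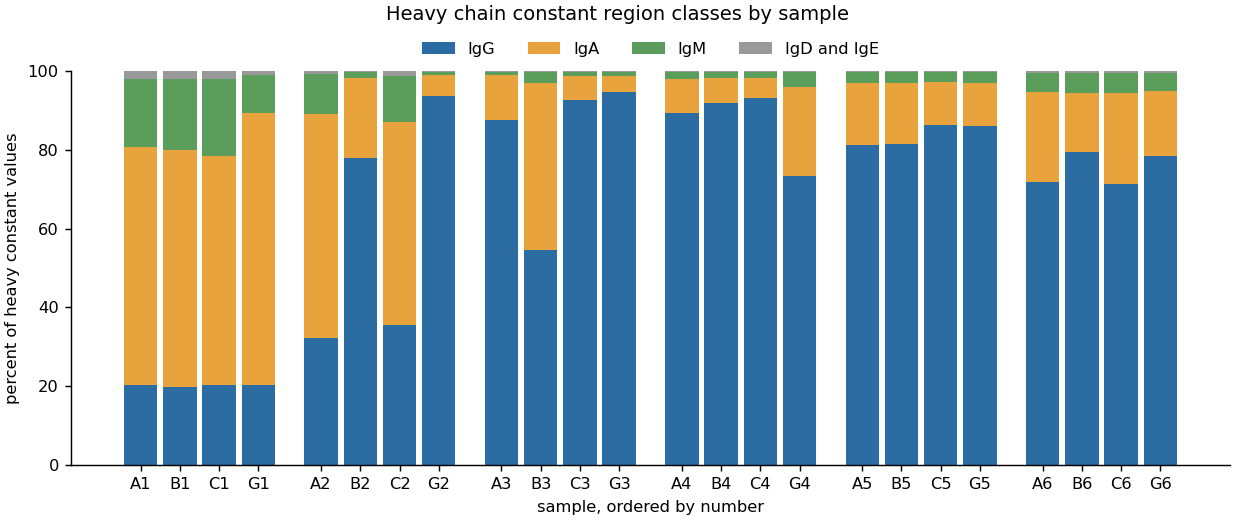
Share of the heavy chain constant values (percent, stacked to 100) held by IgG, IgA, IgM and the remainder (IgD and IgE) in each of the 24 samples, ordered by number. IgG is between 19.9% and 20.4% in the 4 samples numbered 1, 32.2% in A2 and 35.4% in C2, and at least 54.5% in the other 18 samples.

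Within IgG, the mix of the 4 mouse-named genes also differed. Ighg1 made up 61.7% to 73.9% of the IgG values in number 1 and 32.1% to 50.3% in numbers 3 to 6, without overlap. Ighg2b made up 8.81% to 15.2% in number 1 and 20.8% to 31.4% in numbers 3 to 6. Ighg2c made up 4.96% to 7.31% and 12.1% to 16.6%, and Ighg3 12.3% to 15.8% and 16.7% to 21.8%. All 4 shares passed the test over numbers (adjusted p = 0.00483, 0.00740, 0.00467 and 0.00723, permutation within letters). Which rat subclasses these rows reflect was not tested.

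Between letters, no immunoglobulin gene passed the threshold. The mean of Igkc was 121524 ± 105378 for letter A and 113030 ± 79166 for letter B (SD, n = 6 each). For letter C it was 112830 ± 89248 and for letter G 211021 ± 219660. Its lowest, median and highest values were 11535, 119606 and 303241 in A and 10827, 97312 and 222940 in B. They were 14626, 105881 and 226809 in C and 27100, 134200 and 626192 in G. The letters overlapped, with the lowest sample of each numbered 1, and G2 lay above every sample of A, B and C.

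The F test over letters called 0 of the 327 genes, against 0.00652% of all 30667 genes (limma, adjusted p under 0.05), and 0 of the 327 had an unadjusted p under 0.05, where 3.91% of all genes did. The pairs of letters called 0 as well. The share of all genes called was 0% in all 3 pairs among A, B and C, 0.00652% for G against A and for G against C, and 0.00326% for G against B. At an unadjusted p under 0.05 0 genes were counted for A with B (3.58% of all genes) and 0 for A with C (2.98%), 1 for B with C (1.82%) and 3 for G with A (8.15%). The count was 1 for G with B (3.67%) and 6 for G with C (4.03%), so each lay below the share of all genes. The median log2 difference of the 327 genes was 0.58 for G against A, 0.52 for G against C and 0.39 for G against B. That of all genes lay within 0.01 of 0 in each. In number 2 the 327 genes summed to 1390540 in G2, 565382 in B2, 72088 in A2 and 58568 in C2. How far these medians rested on G2 was not tested. For Igkc the widest letter difference was G against C, 0.88 (SE 0.87), and for Ighg1 G against A, 1.08 (SE 1.01), so each was about as large as its error. With 1 sample left out these differences ranged from 0.42 to 1.34 and from 0.43 to 1.66. Letters were fitted without the numbers, so these errors and the limma p-values include the spread between numbers. The numbers accounted for a median of 46.1% of the variance in the 327 genes and 37.1% in all genes. Sums, class shares and evenness gave 126 exact permutation tests over letter pairs, of which 0 had an unadjusted p under 0.05. The smallest p was 0.0779, and the smallest that 6 against 6 samples can give is 0.00216. Paired by number, an exact sign-flip test gave p = 0.0313 for the IgM level in G against A and in G against B, the smallest it can give, with G higher at all 6 numbers in both and by 0.30 and 0.29 on the log2 scale. Adjusted over the 126 tests both were 0.992.

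Over the 6 numbers, 167 of the 327 genes (51.1%) passed the F test, against 31.5% of all genes (limma, letter in the model). They were 81 of 142 kappa variable and 71 of 162 heavy variable genes, 4 of 5 kappa joining genes, all 4 IgG genes, 3 of 4 Iglc genes, Igkc, Ighm, Ighd and 1 of 2 lambda joining genes. The smallest adjusted p-values were those of Ighm (1.4e-05), Ighd (2.6e-05), Ighv1-58 (0.000211), Ighg2c (0.000228), Ighg3 (0.000269) and Ighg2b (0.000289). Ighv1-23 (0.00101), Ighg1 (0.00106), Igkj4 (0.00109) and Igkv1-88 (0.00121) followed. Without the 4 samples numbered 1, 10 genes passed, against 22% of all genes, so most of these calls rested on number 1. The 10 were Ighm, Ighd, Ighv1-15, Ighv1-17, Ighv1-23, Ighv1-58, Ighv9-2, Ighv9-3, Igkv1-122 and Igkv4-57-1, named after their values were seen.

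Set against number 1, 131 immunoglobulin genes were higher in number 2 (9.02% of all genes were), 215 in number 3 (5.12%) and 125 in number 4 (5.64%). The count was 87 in number 5 (2.81%) and 94 in number 6 (4.86%), each at an adjusted p under 0.05 in limma. These comparisons share the samples numbered 1. Lower than in number 1 were Ighm and Ighd in number 3 (4.92% of all genes) and 1 gene, Ighd, in number 4 (4.85%), and 0 in numbers 2 (8.15%), 5 (2.85%) and 6 (4.7%). The median log2 difference of the 327 genes from number 1 was 2.09 in number 2, 2.85 in number 3, 1.96 in number 4, 1.76 in number 5 and 1.77 in number 6. For all genes it was at most 0.02 in each. Number 6 against 5 called 2 genes higher, Ighm and Ighd, against 0.326% of all genes. Leaving out 1 sample changed the count in number 6 to as few as 34 (without B1 or without A6), 41 without C6, 43 without B6, 44 without A1 or without C1 and 56 without G1. In number 3 the count was 131 without A3 and 141 without C3.

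Of the 245 genes with a mean of at least 10, 110 (44.9%) had all 4 samples numbered 1 below every sample of numbers 3 to 6. Of all genes with such a mean, 443 of 21922 did (2.02%). This split of the numbers was chosen after the values were seen and is a description. High samples alone can lift a gene past that mean, so the filter itself may raise the 44.9%. In the samples numbered 1, 64 to 91 kappa variable genes reached 10, where 117 had a mean of at least 10. G2 was the highest sample for 115 of the 327 genes (35.2%), and the share of all genes for which it was highest was not computed. Of 21 sums, shares and evenness measures, 15 passed the test over numbers, and 2 did so without the samples numbered 1: the IgM level (82.6% of variance, adjusted p = 0.00147) and the IgD level (85.7%, adjusted p = 0.00525, permutation within letters).

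Variable genes supply the antigen-binding part of each chain, and a tissue with many unrelated B cells or plasma cells draws on many of them. Their sums followed the constant regions: kappa variable genes in numbers 3 to 6 averaged 8.11 times number 1 and heavy variable genes 7.20 times. Among the 5 kappa variable genes with the highest means, Igkv16-104, Igkv12-98, Igkv12-38, Igkv19-93 and Igkv15-97, all were higher in number 3 than in number 1. Their log2 differences were 3.52, 3.75, 4.05, 4.12 and 3.59 (adjusted p = 0.00961, 0.00718, 0.00291, 0.00893 and 0.00424, limma). The heavy variable genes Ighv2-6-8, Ighv5-9, Ighv5-17, Ighv2-9 and Ighv2-3 were higher as well, by 3.50, 4.25, 3.29, 3.36 and 3.55 (adjusted p = 0.00111, 0.00334, 0.00174, 0.00126 and 0.00102). These kappa and heavy genes were picked by a mean to which the samples numbered 3 add, so their agreement is a description. The 2 lambda variable genes did not pass, with differences of 1.49 for Iglv1 (adjusted p = 0.169) and 1.54 for Iglv2 (adjusted p = 0.232). Of the kappa joining segments, Igkj1 held 39.2% to 71.4% and Igkj5 22.7% to 53.4% of the joining values.

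Use of the variable genes was uneven in every sample, and the gene that led differed between samples. Igkv16-104 was the largest kappa variable gene in 10 samples, Igkv12-98 in 5, Igkv1-35 in 4 and Igkv12-38 in 2. Igkv10-94, Igkv15-97 and Igkv19-93 led in 1 sample each. In G2, Igkv16-104 reached 25452 and 20.9% of the kappa variable values, where its next highest share was 13.2%. Igkv12-98 reached 16.0% in G5, Igkv12-38 13.9% in G3 and Igkv19-93 13.4% in C3. On the heavy chain Ighv2-6-8 led in 15 samples, with its highest share of 16.9% in G1, and Ighv5-9 led in 7. Ighv5-17 led in A4 (12.7%) and Ighv9-3 in C5 (13.1%).

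**Figure D3:**
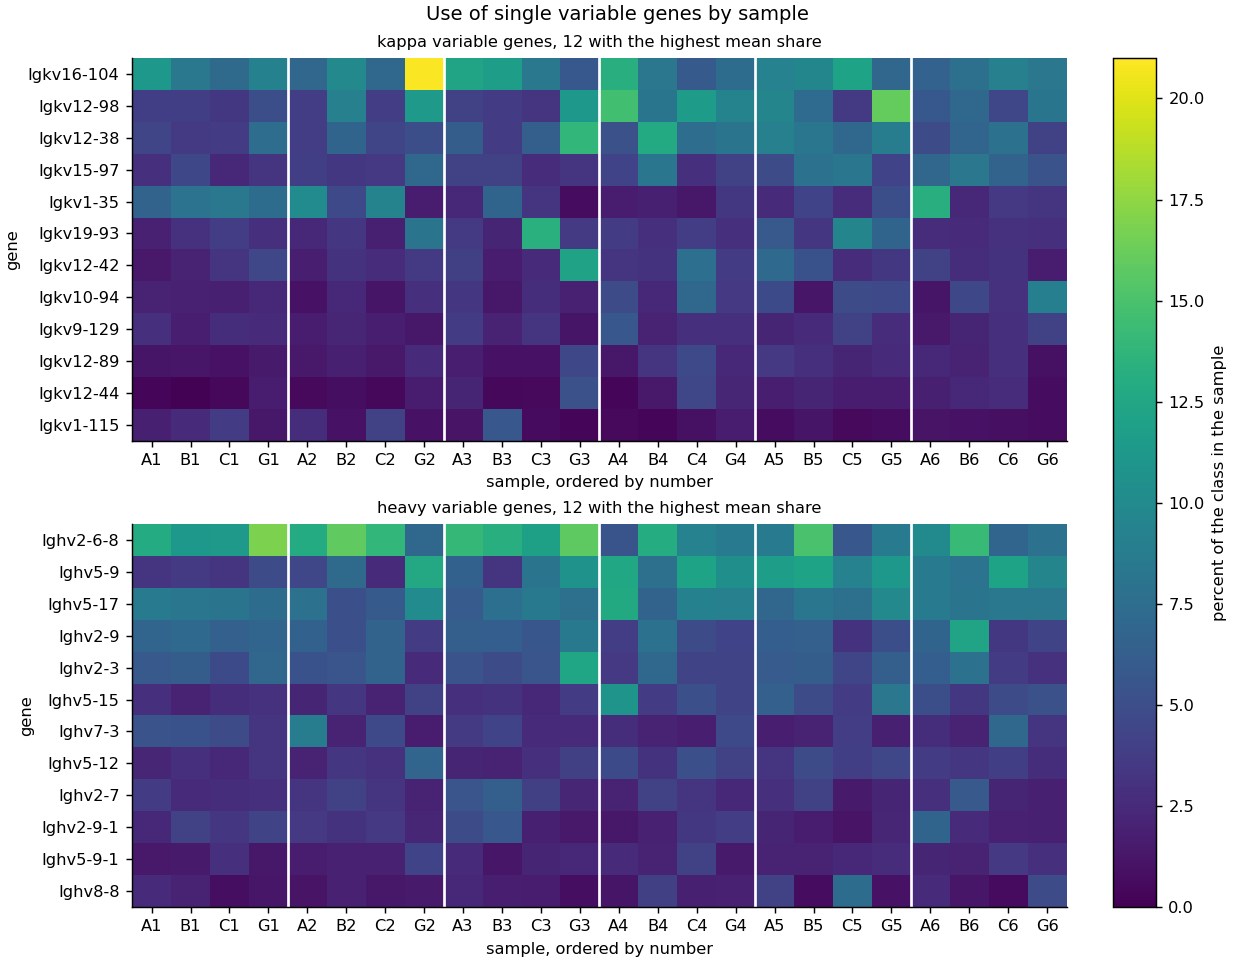
Heat map of the percent of the kappa variable (Igkv) or heavy variable (Ighv) values held by each of the 12 genes with the highest mean share, with samples ordered by number. Single cells stand out, such as Igkv16-104 in G2 (20.9%), Igkv12-98 in G5 (16.0%) and Igkv19-93 in C3 (13.4%).

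Whole families of similar genes differed between samples too. The 12 Igkv12 genes averaged 25.01% of the kappa variable values, from 11.96% in B3 to 61.0% in G3. The 13 Igkv1 genes ran from 3.29% in G3 to 33.02% in C2. G3 was also the lowest sample for the Igkv16, Igkv3, Igkv9, Igkv4, Igkv14, Igkv5 and Igkv20 families. Shares within a class are parts of the same sum, so a high share of 1 family lowers the others. On the heavy chain, the 19 Ighv5 genes held 23.5% in C2 to 55.2% in A4, and the 11 Ighv2 genes 17.0% in A4 to 45.6% in B6. The Ighv9 family took 0.161% in B4 and 10.01% in C3 and was highest in C5, and the Ighv8 family reached 18.3% in B4.

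Some variable genes were abundant in 1 or 2 samples. Ighv9-3 had a median of 87.9 over the samples but stood at 2976 in C3 and 2670 in C5, with 867 next, and its highest value was 33.9 times its median. Igkv15-101 stood at 574 in G2 and 438 in C3, against a median of 12.7, and its value in G2 was 45.1 times that median. Igkv17-121 was highest in A3 (864, 25.8 times its median). Ighv11-1 (552), Ighv11-2 (1182) and Igkv4-58 (748) were highest in G2, at 26.4, 24.7 and 24.6 times their medians. These are the 6 variable genes with a mean of at least 50 and the highest such ratios, which also carry each sample's total. Because the genes were picked by this ratio, its size is a description only. The high samples themselves can lift a gene past the mean of 50, as for Igkv15-101, with a mean of 64.3. As shares of their class they differed less: Igkv4-58 held 0.613% in G2 against a median of 0.224% and was highest in C5 (0.630%), and Ighv11-1 held 0.944% in G2 against a median of 0.255%. The share of Igkv17-121 was highest in B3 (1.49%), with A3 next (1.33%), and that of Igkv15-101 in C3 (0.984%), with G2 next (0.470%).

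Evenness was summarised as the effective number of genes (the inverse Simpson index, the number of equally used genes that would give the same concentration). For kappa variable genes it was 32.4 in A1, 35.8 in B1, 36.9 in C1 and 30.8 in G1. It was 34.2 in A2, 29.6 in B2, 33.6 in C2 and 13.2 in G2, the lowest of all samples. It was 29.5 in A3, 26.9 in B3, 25.2 in C3 and 15.6 in G3. Over numbers 3 to 6 it ranged from 15.6 to 30.9, so C6 (30.9) passed G1 by a small margin and the groups overlapped. The numbers accounted for 41.8% of the variance of this measure (adjusted p = 0.0755, permutation within letters), which missed the threshold. Without G2 the adjusted p was 0.0103, without G4 0.00960 and without Igkv16-104 0.0336. A second evenness measure, the exponential of Shannon entropy, was 55.7 to 60.4 for kappa variable genes in number 1. It was 29.9 to 55.2 in numbers 3 to 6, without overlap. For heavy variable genes its ranges overlapped, at 37.5 to 41.5 and 26.2 to 42.3. This comparison of ranges is a description.

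For heavy variable genes the effective number was 22.2 in A1, 23.5 in B1, 24.4 in C1 and 18.2 in G1, and over numbers 3 to 6 it ranged from 13.8 in G3 to 24.8 in G6. The samples of all numbers overlapped, and the numbers accounted for 17.1% of its variance (adjusted p = 0.655, permutation within letters). Free shuffling of all 24 samples would give 21.7% on average. The share of the top gene did not pass for kappa (adjusted p = 0.534) or heavy variable genes (adjusted p = 0.551). Effective numbers in samples with less immunoglobulin rest on fewer reads per gene.

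**Figure D4:**
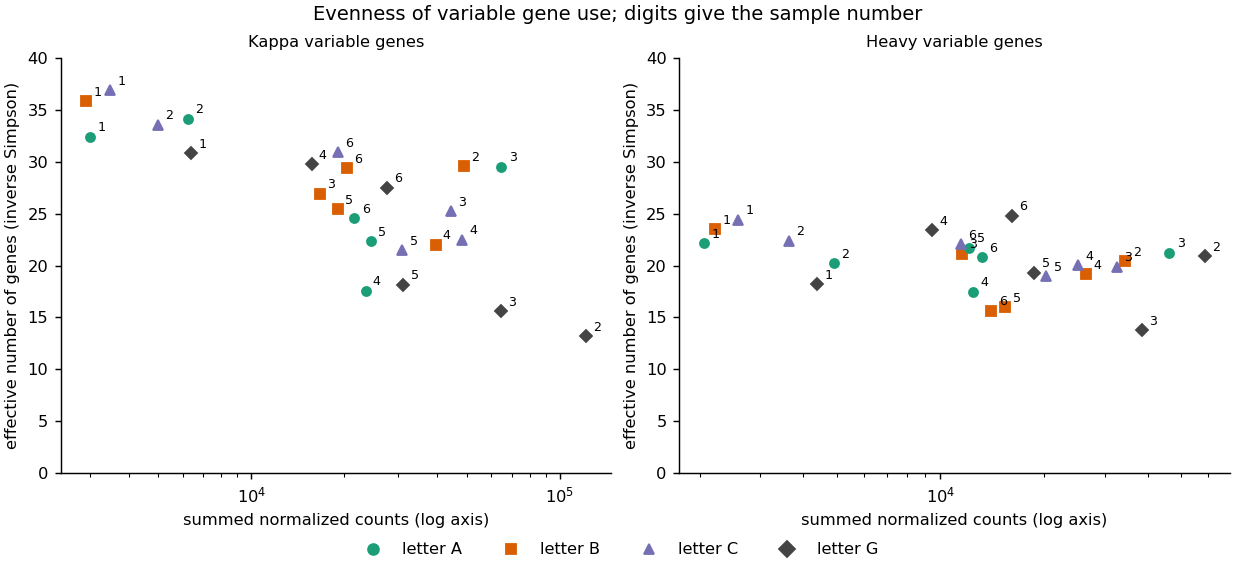
Effective number of kappa and heavy variable genes (inverse Simpson) against their summed normalized counts (log axis), with a digit for each sample's number, coloured by letter. On the kappa side G2, with the highest sum, has the lowest effective number, 13.2, and the samples numbered 1 lie at 30.8 to 36.9.

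Genes that mark the cells making immunoglobulin were followed from lists. Of 12 plasma cell genes, 10 passed the test over numbers (31.5% of all genes did). Jchain, which joins IgA and IgM into polymers, was 2851 in A1, 2438 in B1, 3126 in C1 and 5927 in G1, and 38985 in A3, 13167 in B3, 28171 in C3 and 36281 in G3, without overlap. It was higher in number 3 by 2.998 (SE 0.54, adjusted p = 0.00111, limma). Mzb1, a chaperone of antibody assembly, was higher by 1.87 (SE 0.35, adjusted p = 0.00162). In number 3, 5 of the 12 were higher (5.12% of all genes) and 0 lower (4.92%) than in number 1. The list median was 0.66, against 0.01 for all genes.

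Of 12 B cell genes, all 12 passed the test over numbers (31.5% of all genes did), with another order of the numbers. In number 3, 0 of the 12 were higher (5.12% of all genes) and 3 lower (4.92%) than in number 1 (median -0.43). In number 6, 5 were higher (4.86% of all genes) and 0 lower (4.7%), with a median of 0.55, in limma with an adjusted p under 0.05. Ms4a1 and Cd79a, a surface protein and a receptor subunit of B cells, passed over numbers (adjusted p = 0.00798 and 0.0351). In number 6 they lay 0.44 and 0.45 above number 1 (adjusted p = 0.172 and 0.130).

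**Figure D5:**
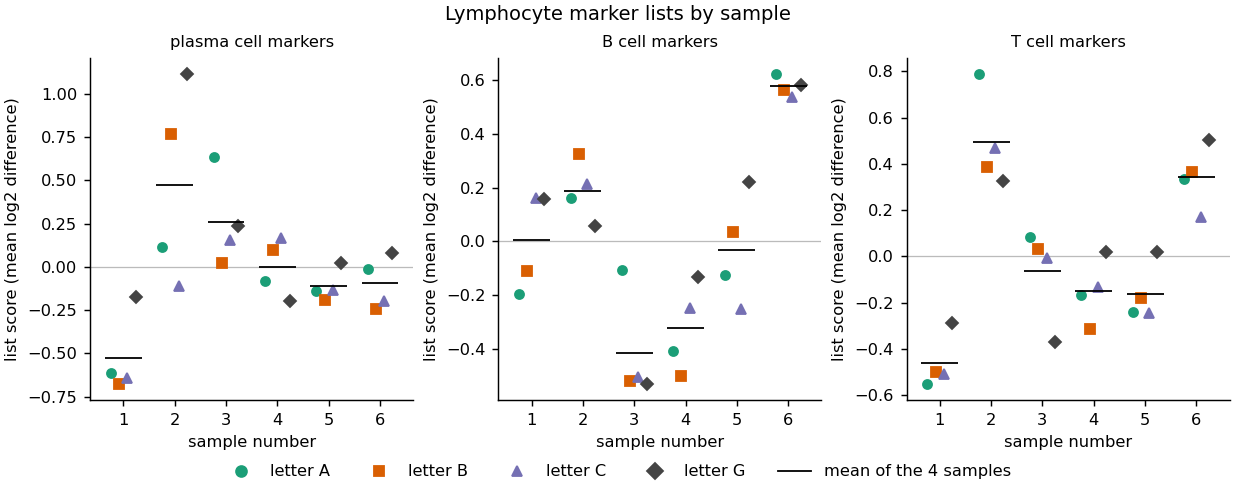
List scores (mean log2 difference from the average sample) of plasma cell, B cell and T cell genes by sample number, with a point for each sample coloured by letter and a bar at the mean of 4 samples. The B cell scores of number 6 lie between 0.54 and 0.62, above all other samples, and the plasma cell scores are highest in G2 (1.12).

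The summed constant regions (log2) tracked the plasma cell list across the 24 samples, with Pearson's r = 0.80 and Spearman's rho = 0.82 (adjusted permutation p = 2e-05 and 4e-05 over 2 relations). The value was r = 0.79 without G2 and B2, 0.75, 0.82, 0.82 and 0.87 within letters A, B, C and G, and 0.67 without the samples numbered 1 (permutation p = 0.00223). With the B cell list r was -0.13 and rho -0.16 (adjusted permutation p = 0.540 and 0.452), and r was -0.21 without A6 and G6. Within letters it was 0.03, 0.16, -0.61 and -0.24. Samples that share a number are not independent, which these p-values do not take into account.

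Other lists of the antibody pathway were read against the same share of all genes, 31.5% over numbers. Of 12 class switching and germinal centre genes, 10 passed over numbers, with 3 higher and 1 lower in number 3 than in number 1. Of 12 genes for immunoglobulin transport and Fc receptors, 9 passed, with 5 higher and 1 lower in number 3. Among all genes, 5.12% were higher and 4.92% lower in number 3 than in number 1. Pigr passed over numbers (adjusted p = 0.0208) and differed by 0.13 between number 3 and number 1 (SE 0.10, adjusted p = 0.477). Of 11 lymphoid chemokine and cytokine genes in the table, 7 passed, among them Cxcl13, which draws B cells into follicles (adjusted p = 0.00615). Of 7 early B lineage genes, 3 passed. No gene of any of these lists passed over letters (limma).

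Markers of other cells and tissues were read against the 31.5% of all genes that passed over numbers. All 9 T cell genes passed, with 6 higher in number 3 (5.12% of all genes) and 7 higher in number 6 (4.86%) than in number 1. Of 6 red blood cell genes 5 passed, of 7 genes of lymph node and thymus stroma 1, of 6 squamous genes 1 and of 6 skeletal muscle genes 1. T cell list scores ran from -0.55 to -0.29 in number 1 and from 0.33 to 0.79 in number 2. Their part in the immunoglobulin differences was not tested.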

How the data were processed

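Per the labels, mRNA of rat lung tissue was sequenced. The authors deposited 1 table of normalized read counts (a signal per gene, 30667 genes, 24 samples), and the submitters' processing notes name STAR and the mouse build GRCm38. The counter and the normalization are not given in the sources used here, and raw counts could not be recovered. A count test, planned for raw counts, was therefore not run. Members and gene lists were chosen with earlier results of these data known.

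All genes were tested with limma 3.58.1 in R 4.3.3 (trend, log2(value + 1), minimum mean 0.5, which every gene passed) with Benjamini-Hochberg adjustment and a threshold of 0.05. Letters were fitted alone, numbers with letters, and code was tested on simulated data. The 15 number pairs and leaving out numbers 1 or 2 were added after seeing the data. Per-sample sums and shares were tested by exact two-sided permutation between letters (126 tests) and by 100000 arrangements of numbers within letters (21 measures). Named genes were all constant genes, the 5 variable genes per locus with the highest mean, the 6 most uneven, the leading variable gene of each sample, at most 10 with the smallest F test p, and 8 list genes, of which 2 are not reported here. Deviations of same-numbered samples correlated above 0.1 in every pair for B against A (0.169 to 0.590) and C against B (0.127 to 0.596), not for the other 4 letter pairs. This pairing comes from the data only.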

Additional observations from a re-analysis of the deposited data

Results flagged for a closer look

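Within each letter the highest or lowest of 6 samples was compared with its nearest neighbour by Dixon's ratio. It stood apart in 25 of 136 groups, where chance would give about 6.8 (1 in 20) for normally distributed values. Levels were compared here without logs, although they spread widely, and the groups share samples and are not independent. The 6.8 is therefore only a rough guide. A single gene and the sum that equals it count separately, so IgM, IgD and IgA in A6 and C6 each appear as both a sum and a gene. In letter G, G2 was apart for the lambda constant sum (72874, next 12795), Iglc2 (25431, next 4350), Iglc3 (46409, next 8036), Iglc1 (236, next 109) and Iglc4 (798, next 300). G1 was apart for the IgG share of heavy constant values (20.2%, next 73.4%), the IgA share (69.1%, next 22.8%) and the shares of IgG held by Ighg1 (73.9%, next 42.3%), Ighg2c (4.96%, next 13.8%) and Ighg3 (12.3%, next 18.1%). In letter B, B2 was apart for Iglc1 (169, next 60.1), Iglc4 (524, next 228) and Ighe (14.9, next 8.82), and B1 for the IgM share (18.2%, next 4.90%). In letter A, A3 was apart for the kappa variable sum (64741, next 24455), the heavy variable sum (46237, next 13205) and Ighg1 (106513, next 37730). A6 was apart for Ighm (5769, next 3343) and Ighd (539, next 296), and A1 for the Ighg3 share (15.8%, next 19.2%). In letter C, C6 was apart for Igha (21281, next 13979) and C1 for the Ighg3 share (14.6%, next 19.7%).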

How the results depend on the processing

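The count of 0 immunoglobulin genes called over letters and in each letter pair was the same under every alternative run: pseudocount 0.1, a mean of at least 10, quantile normalization, 75th percentile scaling, sample quality weights, pairs fitted alone, each sample left out, and the number as a replicate block, which gave 0 and changed no call. The paired sign-flip test of sums and shares can reach no p under 0.0313 and called 0. Over the numbers, 167 genes became 168 with pseudocount 0.1, 161 with a mean of at least 10, 149 after quantile normalization, 162 after 75th percentile scaling and 10 without the samples numbered 1. Leaving out 1 sample gave 89 to 211, lowest without B1 (89), A1 (96), C1 (110) and G1 (116). Genes higher in number 3 than in number 1 ranged from 131 to 230 and in number 6 from 34 to 124 with 1 sample left out. Without the samples numbered 2 the latter count was 166, where the spread is estimated without B2 and G2. Of sums, shares and evenness measures, 15 passed over numbers, 10 to 16 with 1 sample left out, and 2 without the samples numbered 1. The effective number of kappa variable genes passed without the samples numbered 2 (59.9% of variance, adjusted p = 0.0210). Signs turned only with 1 sample left out, for Ighd in C against A (0.11, range -0.038 to 0.34, -0.02 without A4 and -0.038 without C6) and Ighe in number 3 against 1 (0.15, range -0.49 to 0.71, -0.49 without G1 and -0.07 without G3), and neither passed a test. The cause was not tested. DESeq2 was not run, as no raw counts were used. The read depth is unknown.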
